A study of Mus musculus with 2 samples.

Results

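The interferon-induced Ifi genes and membrane antiviral genes described here are Ifi27, Ifi27l2a, Ifi44, Ifi44l, Ifi35, Ifitm2, Ifitm3, Bst2, Rsad2 and Cmpk2. They were chosen by symbol, taking every probeset annotated to exactly 1 of these 10 genes, and the list was drawn up with earlier values from these arrays in view. No probeset carried the symbol Ifi44 alone, so Ifi44 was not analysed here. The other 9 genes had 17 probesets, out of 18193 genes with 34945 probesets in all. The cells were RAW264.7, a mouse macrophage-like line, infected with the retroviral vector MSCV encoding mir-155, and the control was the same line infected with empty MSCV. Puromycin selection at 7 µg/ml and cloning by limiting dilution were common to both arms, RNA of 5 clones was pooled per arm, and each pool went onto 1 array. With 1 array per group no difference has a replicate check, no p-value can be given, and variation between clones cannot be told apart from an effect of miR-155. The median signal over all 45101 probesets was 14.1 on the miR-155 array and 15.4 on the empty-vector array.

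The study's stated purpose was to find mRNAs regulated by miR-155. MicroRNAs pair with messenger RNAs mainly through a short seed at their 5′ end and lower the level or translation of the messages they bind. The mature miR-155-5p of RefSeq (GRCm38.p6, chr16:84714143-84714165, plus strand) is shown because it is the molecule the 2 arms are meant to differ in, with its seed, bases 2 to 8, in capitals. The exact insert was not given in the sources used here, and these probesets do not measure the mature microRNA.
mmu-miR-155-5p: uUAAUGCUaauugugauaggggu

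The members belong to the interferon response. Type I interferons bind a shared cell-surface receptor, and its kinases activate the STAT proteins, which together with Irf9 bind interferon-stimulated response elements in the promoters of the induced genes. The products act at different points of a viral life cycle: Ifitm proteins at membrane fusion, Rsad2 and Cmpk2 in the nucleotide supply of the cell, and Bst2 at the release of budding particles.

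In the miR-155 array 7 of the 9 measured genes read higher than in the empty-vector array, and Ifi27 and Ifitm2 read slightly lower. In pooled RNA, more expressing cells or clones and more RNA per cell cannot be told apart. Ifi27l2a, Ifi44l, Bst2, Ifitm3 and Cmpk2 were at least 2-fold higher, and Ifi35 and Rsad2 lay between 1.5-fold and 2-fold. No member was 1.5-fold lower. The median log2 ratio of the 9 genes, miR-155 over empty vector, was 1.01, against -0.05 for the 9097 genes in the upper 50% of signal, which begin at a geometric mean signal of 25.8, called the signal floor below. Of those 9097 genes, 42% had a log2 ratio above 0, 1.92% were 2-fold higher or more, 5.32% were 1.5-fold higher or more, and 5.99% were 1.5-fold lower or more. Because the members were chosen with these values known, their counts describe the arrays and support nothing. All 9 genes passed the filter, and neither reading of any of them fell below the floor. Each gene is given by its brightest probeset, that of highest mean log2 signal. The spread beside a ratio is the local SD, a robust SD of log2 ratios over the 500 genes around it in order of signal. For genes at the bright end these are the 500 brightest genes. The local SD holds array noise and real differences together and is not a replicate error.

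**Figure D1:**
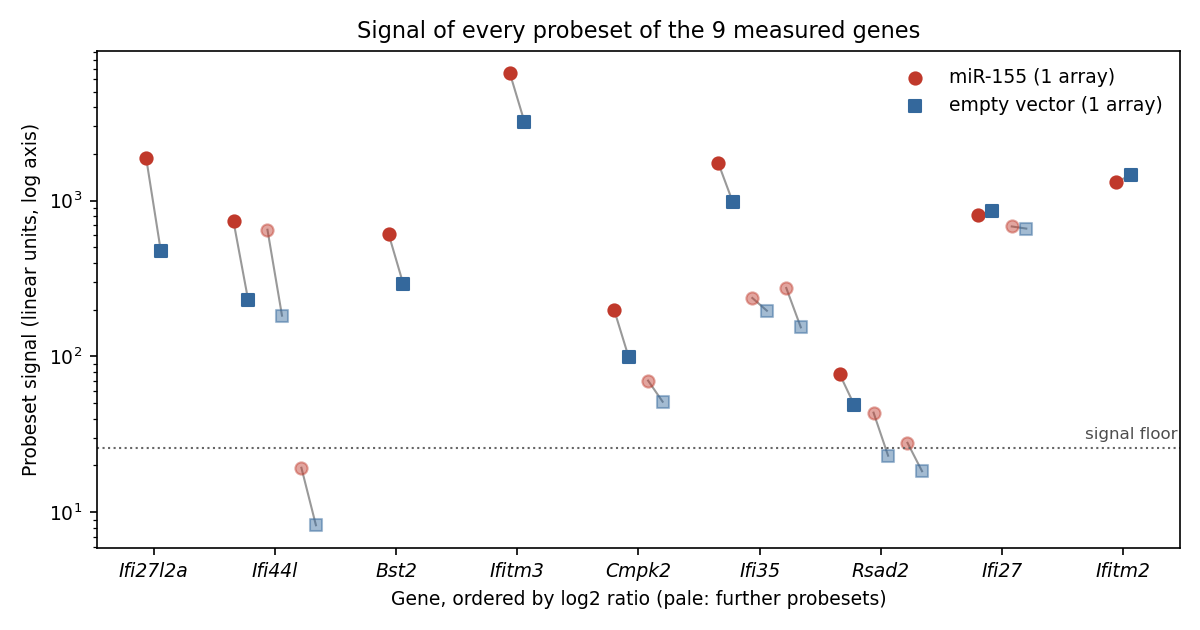
Signal of each of the 17 probesets (log axis) in the miR-155 array (circles) and the empty-vector array (squares), joined by a line, with genes ordered by log2 ratio; solid symbols are the brightest probeset of a gene and pale ones the further probesets. For Ifi27 and Ifitm2 the 2 symbols lie almost level, while the circle is higher for all the probesets of the other 7 genes.

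The Ifi27 family encodes small hydrophobic proteins of intracellular membranes. Ifi27l2a had the highest ratio of the 9 genes, with a signal of 1861 on the miR-155 array and 476 on the empty-vector array. This was 3.91-fold higher, a log2 ratio of 1.97 with a local SD of 0.17, and it ranked 28 from the top among the 9097 genes. Ifi27 read 810 on the miR-155 array and 855 on the empty-vector array, a log2 ratio of -0.08 with a local SD of 0.17. Its further probeset read 682 on the miR-155 array and 661 on the empty-vector array, a log2 ratio of 0.05. Both Ifi27 probesets therefore lay within the local SD of 0. The further one is of the array maker's _s_at class, which can match more than 1 transcript, and a part of other genes in its signal was not tested. The log2 ratios of Ifi27l2a and Ifi27 differed by 2.04, or by 1.92 with the further Ifi27 probeset. Both genes lie on chromosome 12, next to each other in the order of protein-coding genes of GRCm38.p6. Ifi27l2b, the gene on the other side of Ifi27, read 3.23 on the miR-155 array and 15.3 on the empty-vector array, below the signal floor on both, so no ratio is given.

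Ifi44l is a paralog and chromosome 3 neighbour of Ifi44, and both encode cytosolic proteins induced by type I interferon. Its main probeset read 734 on the miR-155 array and 232 on the empty-vector array. It was 3.17-fold higher, a log2 ratio of 1.66 with a local SD of 0.19. A further probeset read 650 on the miR-155 array and 183 on the empty-vector array, a log2 ratio of 1.83, so the 2 brighter probesets differed by no more than the local SD. The third probeset read 19.3 on the miR-155 array and 8.27 on the empty-vector array, below the floor on both. The further bright probeset is of the array maker's _s_at class, which can match more than 1 transcript, and a part of Ifi44 in its signal was not tested.

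Ifi35 encodes a leucine zipper protein that binds Nmi, another interferon-induced protein. Its main probeset read 1731 on the miR-155 array and 972 on the empty-vector array. It was 1.78-fold higher, a log2 ratio of 0.83 with a local SD of 0.16. A further probeset read 275 on the miR-155 array and 154 on the empty-vector array, with a log2 ratio of 0.84. The third read 237 on the miR-155 array and 197 on the empty-vector array, a smaller log2 ratio of 0.27. It belongs to the array maker's _x_at class, which is open to cross-hybridisation, and the main probeset to the _s_at class. Nmi itself, not a member, read 448 on the miR-155 array and 267 on the empty-vector array, a log2 ratio of 0.75 with a local SD of 0.21.

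The Ifitm proteins sit in plasma and endosomal membranes and hinder fusion of viral envelopes. Ifitm3 read 6543 on the miR-155 array and 3200 on the empty-vector array. It was 2.04-fold higher, a log2 ratio of 1.03, and its local SD of 0.11 was the smallest among the 9 genes. Ifitm2 read 1308 on the miR-155 array and 1457 on the empty-vector array. Its log2 ratio of -0.16 was within the local SD of 0.16, and it differed from that of Ifitm3 by 1.19. Among the Ifitm genes outside the list, Ifitm6 read 325 on the miR-155 array and 127 on the empty-vector array, 2.56-fold higher with a log2 ratio of 1.36. Ifitm1, Ifitm5, Ifitm7 and Ifitm10 were below the floor on both arrays. In gene order Ifitm5, Ifitm2, Ifitm1, Ifitm3 and Ifitm6 follow each other on chromosome 7, so the pair of higher genes, Ifitm3 and Ifitm6, are direct neighbours, and Ifitm1 separates Ifitm2 from them. Each Ifitm gene had 1 probeset, and the Ifitm genes are similar in sequence, so sharing of signal between them was not tested.

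**Figure D2:**
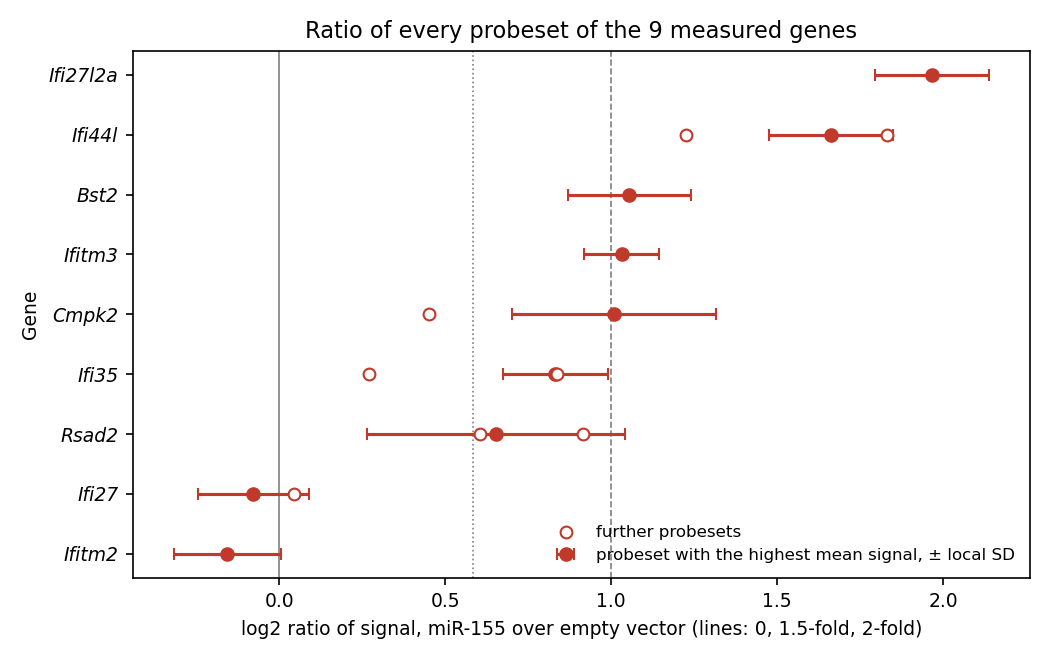
Log2 ratio of signal, miR-155 over empty vector, for each probeset of the 9 measured genes; filled points are the brightest probeset of a gene with a bar of ± 1 local SD, open points the further probesets, and vertical lines mark 0, 1.5-fold and 2-fold. Ifi27 and Ifitm2 lie within 1 local SD of 0, and Ifi27l2a and Ifi44l lie farthest to the right.

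The promoters of Ifitm3 and Ifitm2 are printed because these related genes differed in ratio. Each window holds 300 bases, 250 before and 50 from the annotated start onward, taken from RefSeq (GRCm38.p6), and capitals mark the core of the interferon-stimulated response element, which is GAAA, any 2 bases and GAAA again, searched on both strands. The Ifitm3 window (chr7:141010695-141010994, minus strand) held 2 matches, starting 2 and 19 bases after the annotated start. The Ifitm2 window (chr7:140955912-140956211, minus strand) held 1 match, starting 46 bases before it, with the same letters as the first Ifitm3 match. The core was thus present in both windows, with 1 match in Ifitm2 and 2 in Ifitm3. The part of these matches in the difference in ratio was not tested.
Ifitm3: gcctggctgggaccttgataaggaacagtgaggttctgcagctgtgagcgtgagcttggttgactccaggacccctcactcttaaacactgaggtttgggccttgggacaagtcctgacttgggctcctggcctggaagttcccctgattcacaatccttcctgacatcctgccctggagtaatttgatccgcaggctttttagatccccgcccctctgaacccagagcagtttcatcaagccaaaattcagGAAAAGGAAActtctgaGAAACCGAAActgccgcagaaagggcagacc
Ifitm2: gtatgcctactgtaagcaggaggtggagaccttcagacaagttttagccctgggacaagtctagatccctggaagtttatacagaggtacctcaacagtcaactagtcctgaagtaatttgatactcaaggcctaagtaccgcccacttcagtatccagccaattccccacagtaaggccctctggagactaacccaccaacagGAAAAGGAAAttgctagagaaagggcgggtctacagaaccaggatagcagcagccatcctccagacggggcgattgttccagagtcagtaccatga

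Bst2 (tetherin) is a membrane-anchored protein that holds budding virus particles on the cell surface. Its single probeset read 608 on the miR-155 array and 292 on the empty-vector array. It was 2.08-fold higher, a log2 ratio of 1.06 with a local SD of 0.19. Bst2 is also used as a surface antigen of plasmacytoid dendritic cells. Of 7 further markers of those cells, 4 reached the floor on each array, and their 7 signals summed to 683 on the miR-155 array and 848 on the empty-vector array. Of the 4 markers in the upper 50% of signal, named after their values were seen, the log2 ratio was -1.10 for Siglech, -0.25 for Tcf4, -0.15 for Cox6a2 and 0.19 for Klk1. Their part in the ratio of Bst2 was not tested.

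Rsad2 (viperin) is a radical SAM enzyme that turns CTP into a chain terminator of viral RNA synthesis, and Cmpk2 is a mitochondrial nucleoside monophosphate kinase. The 2 genes are neighbours on chromosome 12. Cmpk2 read 199 on the miR-155 array and 99.0 on the empty-vector array, 2.01-fold higher with a log2 ratio of 1.01 and a local SD of 0.31. Its further probeset read 70.0 on the miR-155 array and 51.3 on the empty-vector array, a log2 ratio of 0.45, so the call at 2-fold rests on 1 of its probesets. Rsad2 read 77.1 on the miR-155 array and 49.0 on the empty-vector array. It was 1.57-fold higher, with a log2 ratio of 0.65 and a local SD of 0.39. This lay 1.76 local SDs above the local median, the smallest distance among the 7 higher genes. The 2 further Rsad2 probesets were higher as well, at 43.6 and 27.9 on the miR-155 array against 23.1 and 18.4 on the empty-vector array, with the empty-vector reading of each below the floor. Every probeset of the pair read higher on the miR-155 array, at signals where the spread is wide. The 2 further Rsad2 probesets add no support, because each has a reading below the floor. For the further Cmpk2 probeset the log2 ratio of 0.45 was close to its local SD of 0.44, taken over probesets.

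The promoters of Bst2 and Rsad2 are printed because they hold the other matches to this core among the members. The Bst2 window (chr8:71537423-71537722, minus strand) held 2 matches that overlap, starting 130 and 124 bases before the annotated start. The Rsad2 window (chr12:26456403-26456702, minus strand) held 1 match, on the opposite strand, starting 120 bases before it.
Bst2: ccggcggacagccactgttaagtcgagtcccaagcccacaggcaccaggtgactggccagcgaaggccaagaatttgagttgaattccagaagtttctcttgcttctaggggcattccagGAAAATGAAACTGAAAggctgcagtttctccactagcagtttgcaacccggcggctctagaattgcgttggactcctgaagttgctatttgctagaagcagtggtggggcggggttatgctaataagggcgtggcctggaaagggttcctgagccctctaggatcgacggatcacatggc
Rsad2: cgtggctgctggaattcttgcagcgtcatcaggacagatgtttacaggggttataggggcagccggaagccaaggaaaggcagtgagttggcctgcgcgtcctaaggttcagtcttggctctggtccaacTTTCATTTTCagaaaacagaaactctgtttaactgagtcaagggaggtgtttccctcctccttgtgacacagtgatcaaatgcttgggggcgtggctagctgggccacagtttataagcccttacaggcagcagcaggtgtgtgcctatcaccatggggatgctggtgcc

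Of the 8 member genes with a promoter in the table, 4 held this core, against 15 of 31 promoters of the other interferon-stimulated genes described below and 3.44% of 32851 promoters of the same length. Ifi27 and Ifi27l2a were not among the 8. Ifi44l, Ifi35 and Cmpk2, which read higher, had no match in this window, and neither had Ifi44. TTCNNNGAA, the core of the gamma-activated site, which reads alike on both strands, was found in 3 of the 8, Ifitm3, Bst2 and Ifi35. It was also found in 6 of the 31 promoters of the other interferon-stimulated genes and in 8.3% of all promoters. In Ifitm3 and Bst2 it overlapped a match to the first motif. A match describes letters only, and its absence says nothing of the factors that bind.

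The spread of the 17 probesets showed how far the members agree within a gene. Of the 5 members with further probesets, 4 had all their probesets, main and further, above 0. The 8 further probesets took the direction of the main one in 7 cases, but only 5 of the 8 had both readings at or above the floor. The share of agreeing further probesets over all genes was not computed, so the count has no background. The exception was Ifi27, whose probesets lay on either side of 0. Probesets of 1 gene share the RNA and the array and are not replicates. Over 4115 genes with further probesets at or above the floor, the robust SD of the log2 ratio between probesets of a gene was 0.21.

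Other interferon-stimulated genes were set beside the members, from a list of 42 written with earlier results known. Of the 40 with a probeset of their own, 33 were in the upper 50% of signal. Of these 33, 14 were at least 2-fold higher and 25 were 1.5-fold higher or more, against 1.92% and 5.32% of all 9097 genes. As many as 0 were 1.5-fold lower, against 5.99%, and every one had a log2 ratio above 0, against 42%. Some lay within the local SD of 0, such as Trim25, named after its value was seen, at 0.11 with a local SD of 0.17. Because the list was written with results known, these counts describe the arrays and support nothing. The median log2 ratio of the 33 genes was 0.95, close to the 1.01 of the members. A gene that passes only through its higher reading had to differ, and 2 of the 33, Oasl2 and Ifit3, had an empty-vector reading below the floor. With no filter, 18 of the 40 were at least 2-fold higher, against 11.4% of all 18193 genes, and the 4 genes added in this way all had an empty-vector reading below the floor. Trim30a, a TRIM family regulator of immune signalling, read 439 on the miR-155 array and 129 on the empty-vector array, a log2 ratio of 1.76 with a local SD of 0.23. Usp18, which removes ISG15 from proteins and restrains the interferon receptor, had a log2 ratio of 1.54. The RNA sensor relative Dhx58 had 1.37, the secreted glycoprotein Lgals3bp 1.36 and the ADP-ribosyltransferase Parp14 1.33. A further Trim30a probeset gave 1.68. The further probesets of Dhx58 and Parp14 each had a reading below the floor. Ifi27l2a, at 1.97, lay above each of the 33, and Ifi27 and Ifitm2 lay below each of them.

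**Figure D3:**
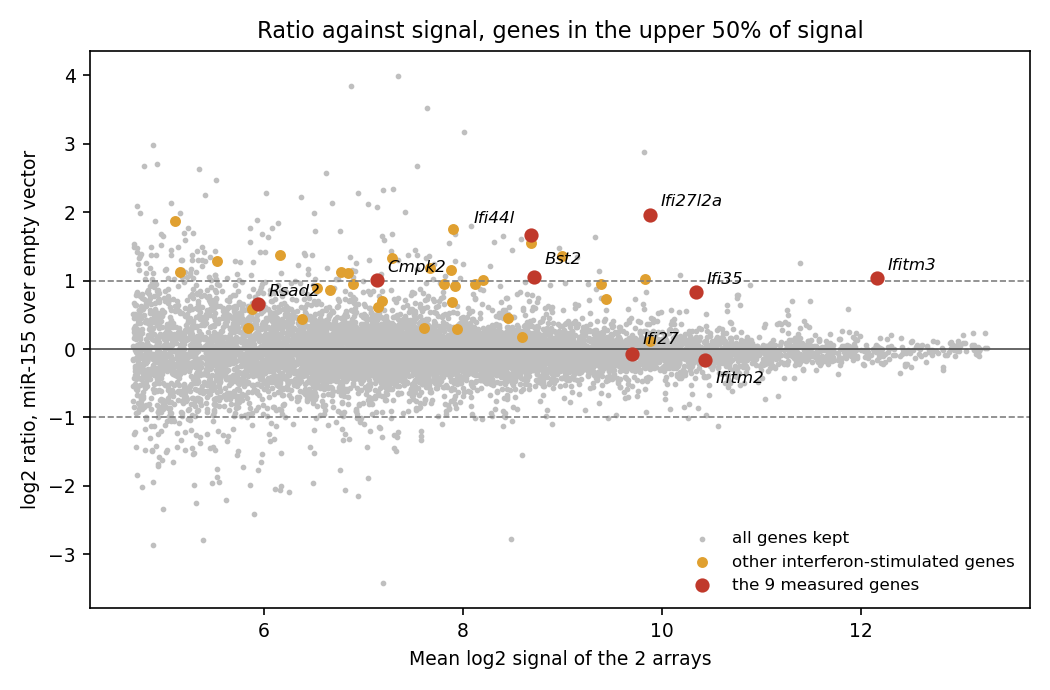
Log2 ratio, miR-155 over empty vector, against the mean log2 signal of the 2 arrays for the 9097 genes in the upper 50% of signal (grey), other interferon-stimulated genes (orange) and the 9 measured members (red, named); dashed lines mark 2-fold. The grey cloud narrows with signal, and Ifi27 and Ifitm2 sit inside it.

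Interferon receptors and the kinases and factors that relay the signal had a smaller median ratio than the members. Of 17 interferon signalling genes in the upper 50% of signal, 3 were at least 1.5-fold higher and 0 as much lower. The shares over all 9097 genes were 5.32% and 5.99%. The median log2 ratio of the 17 genes was 0.15. Irf7, the transcription factor that amplifies type I interferon production, read 255 on the miR-155 array and 94.4 on the empty-vector array, a log2 ratio of 1.43 with a local SD of 0.28. Irf9, the DNA-binding partner of the STAT proteins, read 257 on the miR-155 array and 155.4 on the empty-vector array, with a log2 ratio of 0.73. Stat2, the third gene past 1.5-fold, read 54.1 on the miR-155 array and 20.9 on the empty-vector array, where it was below the floor. It was named after its value was seen. Irf2 had a log2 ratio of 0.48, Irf5 -0.44 and Irf3 -0.42. Of the further probesets of Irf3 and Irf5, 1, of Irf3, stayed above the floor on both arrays, and it gave -0.08. The interferon genes Ifnb1, Ifna2, Ifna4 and Ifng, named after their values were seen, were below the floor on both arrays, with a highest signal of 13.6 on the miR-155 array and 14.6 on the empty-vector array. Ifi30, a lysosomal thiol reductase induced by interferon gamma, shares the Ifi name but is not a member. It read 2457 on the miR-155 array and 3048 on the empty-vector array. Its log2 ratio was -0.31 with a local SD of 0.12, so this interferon-induced gene was lower by more than the local SD.

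**Figure D4:**
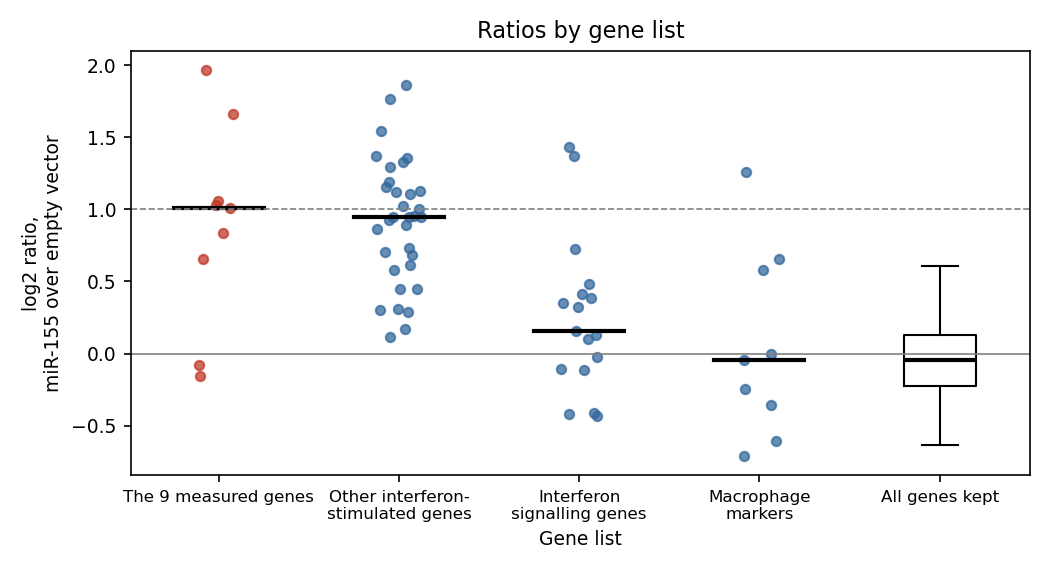
Log2 ratio, miR-155 over empty vector, of each gene in the upper 50% of signal by list, with a bar at the median; the box at the right gives the median, quartiles and 5th to 95th percentiles of all 9097 genes. The medians are 1.01 for the members, 0.95 for the other interferon-stimulated genes and 0.15 for the signalling genes, against -0.05 for all genes.

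The identity of the cells was read from marker genes. Of 10 macrophage markers, 9 were at or above the floor on each array, Mertk being the exception, and the signals of all 10 summed to 24293 on the miR-155 array and 24376 on the empty-vector array. Single markers moved both ways within these sums: of the 9, 2 were 1.5-fold higher or more, Cd14 (log2 ratio 1.26) and Fcgr1 (0.66), and 2 as much lower, Adgre1 (-0.71) and Spi1 (-0.61), named after their values were seen. The part of these differences in the members' ratios was not tested. No marker of B cells or of stromal and endothelial cells reached the floor on either array. Of the T and NK cell markers and of the neutrophil markers, 1 each did so, on the miR-155 array only, with signals of 26.5 for Cd8a and 29.6 for Ngp, named after their values were seen. With 50 added to every signal, 3 in place of 5 members were at least 2-fold higher, namely Ifi27l2a, Ifi44l and Ifitm3. Among all 9097 genes, 60 in place of 175 were.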

How the data were processed

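RNA from 1 pool of clones per arm was hybridised to 1 Affymetrix array each, per the labels' protocols. The authors deposited probeset intensities on a linear scale; summarisation, background correction and scaling between arrays were not given in the sources used here. Gene symbols came from GEO's platform annotation and were brought up to date through their Entrez identifiers in RefSeq (GRCm38.p6). Leaving out 64 control probesets, 34945 had 1 symbol, 932 several and 9160 none listed; genes were named only from the first. The array's genome build is not given, so printed coordinates are those of the RefSeq sequences, and gene order alone was used for neighbours.

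Ratios were miR-155 over empty vector on the log2 scale, with no offset. Each gene was represented by its probeset of highest mean log2 signal, and the upper 50% of genes were kept. Genes were counted at 1.5-fold and 2-fold, with no test, because 1 array per group leaves no residual degree of freedom. The local SD is the scaled median absolute deviation among 500 genes. The members, the 10 gene lists, the alternatives and the naming rule were chosen with earlier results of these data known. The rule named every member, the measured genes related to Ifi27 or Ifitm, Nmi and Ifi30. It also named the 5 largest ratios, neither reading being below the floor, of the other interferon-stimulated genes and of the signalling genes. Only the local SD and the 2-fold threshold were tried on simulated data, where changed genes had a built-in shift well past that threshold. The choice of probesets, the filter, the list counts and the motif search were not tried in this way. The planned comparison of protein sequences was not run. Python 3.11.15, pandas 2.3.3 and numpy 2.4.6 were used.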

Additional observations from a re-analysis of the deposited data

How the results depend on the processing

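Besides the settings used, 7 alternatives were tried. The number of members at least 2-fold higher was 5 of 9, and it was 3 of 9 with 50 added to both signals. It was 4 of 7 in the upper 25% of signal, 4 of 9 with averaged probesets and 5 of 9 under the other alternatives. The median log2 ratio of the members, 1.01, was 0.80 with 50 added to both signals and 0.73 with all probesets of a gene averaged. Of 61 repeated log2 ratios of single members, 60 moved by less than the local SD. The other was that of Ifi35, at 0.65 with averaged probesets. Many of the 61 could not move. A changed filter leaves each ratio as it is, and no member had a reading to raise to the floor. Averaging likewise leaves the 4 members with 1 probeset unchanged, and setting the median to 0 shifts every ratio by the same small amount. The count of 60 is therefore no measure of robustness. No member changed direction under any of the 7 alternatives. Other interferon-stimulated genes at least 2-fold higher numbered 7 of 18 in the upper 25% of signal and 4 of 33 with 50 added, against 14 of 33. The median of the interferon signalling genes was -0.07 in the upper 25% of signal, against 0.15. Of the 9097 genes, 175 were 2-fold higher and 130 lower, with counts of 60 and 24 with 50 added and 290 and 356 with averaged probesets. With no filter the counts were 2072 and 2518 of 18193 genes. In the upper 25% of those by signal they were 36 and 11. Adding 50 to both signals makes every ratio smaller in size by arithmetic, most at dim signals. Fewer genes are counted in the upper 25%, and more with no filter. The cause of the changes beyond this was not tested. No paired analysis was possible because each group has 1 sample. Dim signals limit Rsad2 and Cmpk2, whose local SDs are the widest of the 9 genes.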
